A study of Homo sapiens with 18 samples.

Results

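E2F and DP proteins are the transcription factors that switch on, or hold down, the genes of DNA replication and cell division. Their 10 genes, E2F1 to E2F8, TFDP1 and TFDP2, were looked up by gene symbol in the deposited count tables, and all 10 were found among the 58825 genes of the tables. Poly-A RNA had been sequenced from OVCAR-3, an established cell line of high-grade serous ovarian carcinoma, as 18 libraries in all, with 6 conditions and 3 biological replicates per condition. The cells had been kept in stripped medium with vehicle (DMSO), with 1 µM i-BET858 or with 1 µM i-BET151, and were harvested after 4 or 24 h. Both compounds are inhibitors of the BET proteins, readers of acetylated histones that assist transcription. A single cell line was used and every library of a time point was compared with the same 3 DMSO libraries, so the values of the 2 drugs are not independent of each other.

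An E2F protein binds DNA as a pair with a DP protein, except for the atypical members E2F7 and E2F8, which bind without DP. E2F1, E2F2 and E2F3 activate transcription at the G1/S transition once cyclin-dependent kinases have released them from RB1, whereas E2F4 and E2F5 act mainly as repressors together with the pocket proteins RBL1 and RBL2. E2F6 binds no pocket protein and works with a Polycomb complex, and E2F7 and E2F8 shut down E2F target genes as S phase proceeds.

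Several E2F genes carry words of the E2F site in front of their own start. The word TTTCGCG, the word TTTGGCG, the word TTTCCCG and lastly the word TTTGCCG, 4 forms of the E2F site, were searched on both strands. The search covered the 250 bases of each RefSeq promoter window (GRCh38.p14) that lie before the transcription start. Of 35116 windows, 2573 (7.3%) held at least 1 of these words while 174 (0.5%) held 2 or more. Of the 10 genes, 8 matched a window, and 5 of these had a match: E2F1 with 3, E2F2, E2F3 and E2F6 with 2 each and TFDP1 with 1. No such word was found in the windows of E2F4, E2F7 and TFDP2. The 100 bases before the start are shown for the 3 activators, because all have such words within 100 bases of the start. Capitals mark the matches.
E2F1: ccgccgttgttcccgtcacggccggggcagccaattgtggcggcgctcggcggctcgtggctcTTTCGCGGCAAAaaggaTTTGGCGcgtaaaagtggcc
E2F2: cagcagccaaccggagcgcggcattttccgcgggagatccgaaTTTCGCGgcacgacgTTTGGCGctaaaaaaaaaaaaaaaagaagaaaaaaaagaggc
E2F3: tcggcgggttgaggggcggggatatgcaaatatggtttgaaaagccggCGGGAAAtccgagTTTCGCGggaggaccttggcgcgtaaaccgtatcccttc
The stretch of E2F1 is chr20:33686386-33686485 on the minus strand, that of E2F2 is chr1:23531234-23531333 on the minus strand and that of E2F3 is chr6:20401779-20401878 on the plus strand. In E2F1 the first word, TTTCGCG, overlaps a match to TTTGCCG on the opposite strand, which is why 2 of its 3 matches form 1 block of capitals. E2F3 has a second window without a match. A match is a word in the sequence and not a measured binding site.

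Library totals ranged from 27323969 to 46299994 counts (median 32267434). Values are CPM, counts relative to the size of the library as scaled by TMM factors, and the fewest counts of any of the 10 genes in a library was 184, for E2F2 after 24 h of i-BET858. Replicate 3 of each condition came with another source label and detected fewer genes, 17817 to 20642 against 23674 to 24947 in replicates 1 and 2. All 10 markers of serous epithelium, PAX8 and WT1 among them, were counted in all 18 libraries, with a summed level at 4 h of 8541 to 10096 CPM in DMSO, 9555 to 10105 CPM with i-BET151 and 11448 to 12026 CPM with i-BET858. At 24 h the sum was 9507 to 10707 CPM in DMSO, 7037 to 7529 CPM with i-BET151 and 6869 to 7397 CPM with i-BET858. It was thus above DMSO with i-BET858 at 4 h and below DMSO with either drug at 24 h, and its part in the results was not tested. The sums of 7 leukocyte markers reached at most 2.21 CPM, with MS4A1 at 0 throughout, those of 5 endothelial markers at most 15.7 CPM, and those of 7 stromal markers 21.7 to 50.3 CPM, nearly all of it COL1A1 (21.2 to 45.8 CPM). At 4 h the endothelial sum was 3.48 to 6.71 CPM in DMSO, 4.58 to 12.2 CPM with i-BET151 and 9.10 to 15.7 CPM with i-BET858. At 24 h it was 3.95 to 7.43, 1.81 to 5.92 and 2.24 to 3.98 CPM in the same order. The part of this sum in the results was not tested either. In bulk RNA, fewer cells that express a gene and less RNA per cell cannot be told apart. A gene was said to rise or fall when the adjusted p of edgeR's quasi-likelihood test, corrected over all genes tested at that time (17192 at 4 h and 17157 at 24 h), was under 0.05. That fit held the condition only, and the replicate number entered as a block in an alternative fit. All 10 genes passed the filter on low counts.

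In the DMSO cells of 4 h, the family spanned about an order of magnitude in level per kilobase of exon. E2F1 stood highest with 37.6 ± 3.6 CPM per kb (SD, n = 3), followed by E2F4 with 35.2 ± 3.0 and TFDP1 with 34.1 ± 1.3, and the ranges of E2F1 and E2F4 and those of E2F4 and TFDP1 overlapped. E2F3 (14.3), TFDP2 (10.9), E2F6 (8.56) and E2F8 (7.54) came next with ranges that did not overlap. E2F2 (4.29), E2F7 (3.57) and E2F5 (3.42) were the lowest, and neighbours among these 3 overlapped. E2F1 kept the first rank in all 6 conditions, and after 24 h of i-BET858 E2F2 was the lowest with 1.27 CPM per kb, below the range of E2F7.

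**Figure D1:**
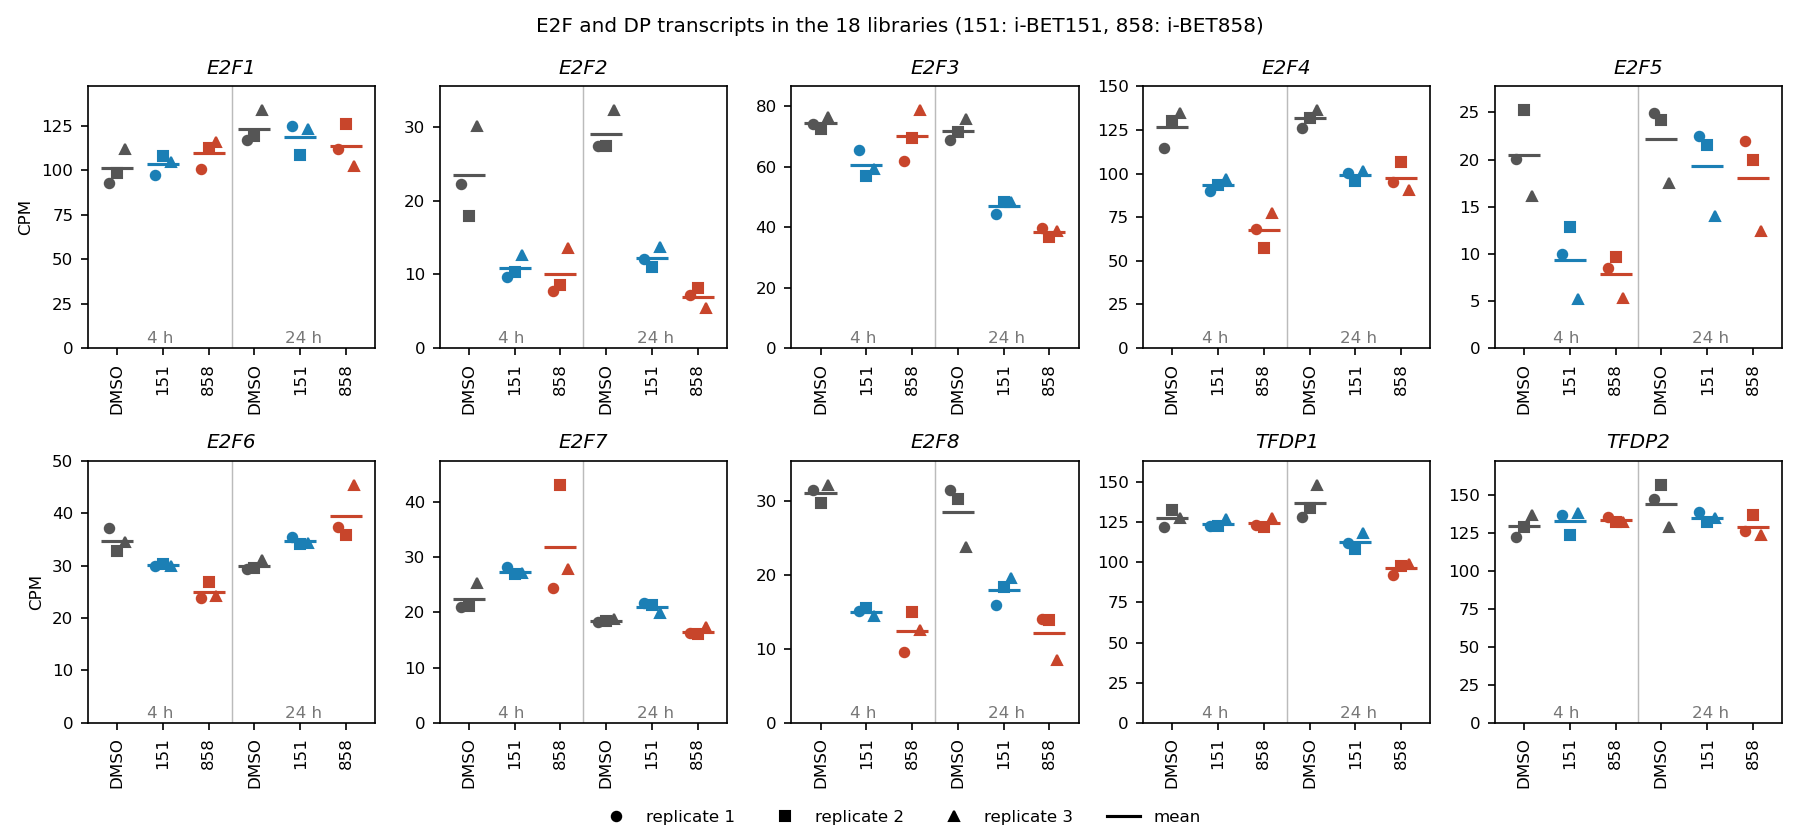
Level of each E2F and DP transcript in CPM (vertical axes, from 0) in all 18 libraries, with a marker shape for each replicate and a line at the mean of 3. E2F2 and E2F8 were lower with either drug at both times, E2F5 was below its DMSO range with both drugs at 4 h, and E2F1 overlapped its DMSO range at both times.

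After 4 h, 5 of the 10 genes fell with i-BET858 and none rose, against 16.3% of all tested genes that fell and 14.5% that rose. With i-BET151, 4 of 10 fell and none rose, against 8.43% and 7.81% of all genes. E2F2, E2F4, E2F5 and E2F8 fell with both drugs, and E2F6 with i-BET858. With an added threshold of 2-fold, 3 of the 10 passed for each drug, against 14.1% (i-BET858) and 7.1% (i-BET151) of all genes. Over the 10 genes the median log2 fold change was -0.28 for i-BET858 and -0.25 for i-BET151, beside 0.02 and 0.01 over all tested genes. Under scaling by total library size in place of TMM, the median of all genes with i-BET858 at 4 h moved to -0.14 and 31.95% instead of 47.09% of all called genes were higher.

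After 24 h, 5 of the 10 genes fell and 1 rose with i-BET858, against 21.3% and 20.5% of all tested genes. With i-BET151, 5 fell and none rose, against 16.6% and 17.2% of all genes. E2F2, E2F3, E2F4, E2F8 and TFDP1 fell with both drugs, and E2F6 rose with i-BET858. With an added threshold of 2-fold, 2 of the 10 passed for i-BET858 and 1 for i-BET151, against 18.8% and 13.7% of all genes. Over the 10 genes the median log2 fold change was -0.36 for i-BET858 and -0.24 for i-BET151, beside -0.01 and 0.00457 over all genes.

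**Figure D2:**
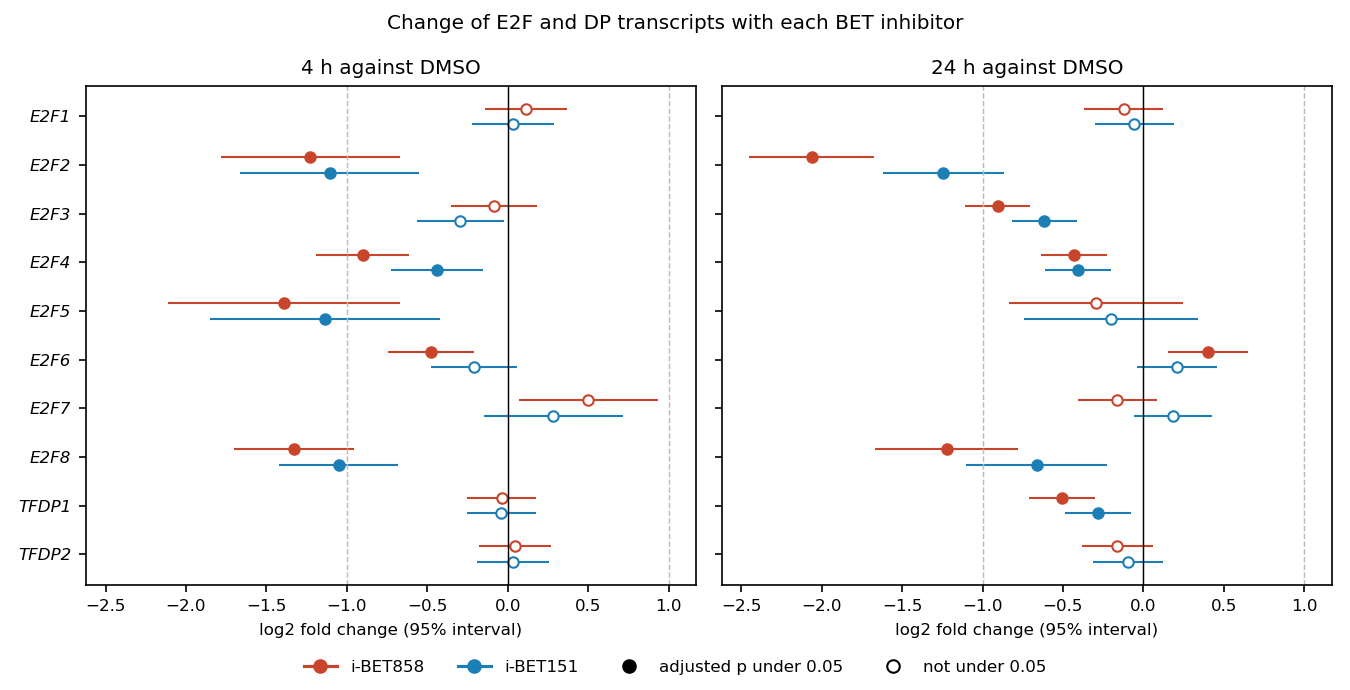
Log2 fold change against DMSO with its 95% interval (horizontal axes) for the 10 transcripts at 4 h and at 24 h, i-BET858 in red and i-BET151 in blue, with filled points for an adjusted p under 0.05 and dashed lines at a 2-fold change. E2F2 at 24 h of i-BET858 lies farthest to the left at -2.06, and the E2F1 intervals include 0 in all 4 comparisons.

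Among the activators, E2F1 (ENSG00000101412.13, chr20:33675477-33686385, GRCh38), which drives both S phase entry and apoptosis genes, passed no test. At 4 h its levels were 93.0, 98.4 and 112 CPM in DMSO, 97.1, 108 and 105 CPM with i-BET151 and 100.5, 112 and 116 CPM with i-BET858. At 24 h they were 117, 119.5 and 134 CPM in DMSO, 125, 108 and 123 CPM with i-BET151 and 112, 126 and 102 CPM with i-BET858. The groups overlapped at both times. The log2 fold change with i-BET858 was 0.12 at 4 h (95% interval -0.14 to 0.37, adjusted p = 0.497) and -0.12 at 24 h (-0.37 to 0.12, adjusted p = 0.408), intervals that leave out a 2-fold change in either direction. With i-BET151 the changes were 0.03 (-0.22 to 0.29) and -0.06 (-0.30 to 0.19). In replicates 1 and 2 alone the i-BET858 value at 24 h was 0.01 and in replicate 3 it was -0.39.

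E2F2 (ENSG00000007968.7, chr1:23506438-23531233), an activator of replication genes, had the largest fold change of the family, at 24 h. At 4 h it stood at 22.3, 17.9 and 30.1 CPM in DMSO, at 9.61, 10.4 and 12.6 CPM with i-BET151 and at 7.74, 8.62 and 13.6 CPM with i-BET858. All treated libraries lay below all DMSO libraries. The fall was 2.34-fold with i-BET858 (log2 fold change -1.23, SE 0.25, adjusted p = 0.00349) and 2.15-fold with i-BET151 (-1.11, SE 0.25, adjusted p = 0.0123). The i-BET151 call was lost without DMSO replicate 3 (adjusted p = 0.0506) or without i-BET151 replicate 1 (adjusted p = 0.0539).

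By 24 h, E2F2 was at 27.4, 27.4 and 32.3 CPM in DMSO, at 12.1, 10.98 and 13.7 CPM with i-BET151 and at 7.23, 8.18 and 5.42 CPM with i-BET858. The 3 conditions did not overlap. E2F2 was down 4.18-fold with i-BET858 (log2 fold change -2.06, SE 0.18, adjusted p = 8.59e-06) and 2.37-fold with i-BET151 (-1.25, SE 0.17, adjusted p = 3.02e-04). The i-BET858 value was -1.84 in replicates 1 and 2 and -2.56 in replicate 3. The change of the i-BET858 effect from 4 to 24 h was -0.79 (95% interval -1.45 to -0.13) and did not pass (adjusted p = 0.0696). It passed with the replicate number as a block (adjusted p = 0.0236), with DESeq2 (0.0369) and with at least 10 counts in every library (0.0402). It also passed without DMSO 4 h replicate 3 (0.0251) or i-BET858 4 h replicate 1 (0.0386).

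E2F3 (ENSG00000112242.15, chr6:20401879-20493714), the third activator and a gene needed for the G1/S transition in many cells, passed at 24 h and not at 4 h. At 4 h its levels were 74.2, 72.4 and 76.3 CPM in DMSO, 65.6, 57.0 and 59.2 CPM with i-BET151 and 61.9, 69.4 and 78.8 CPM with i-BET858. The i-BET858 libraries straddled DMSO and the i-BET151 libraries lay below it. Neither comparison passed, with -0.09 for i-BET858 (95% interval -0.35 to 0.18, adjusted p = 0.652) and -0.29 for i-BET151 (-0.56 to -0.03, adjusted p = 0.134, and 0.0411 with the replicate number as a block).

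At 24 h E2F3 was at 68.8, 71.4 and 75.7 CPM in DMSO, at 44.3, 48.3 and 48.3 CPM with i-BET151 and at 39.6, 36.7 and 38.8 CPM with i-BET858. Again the 3 conditions did not overlap. E2F3 was 1.87-fold lower with i-BET858 (log2 fold change -0.91, SE 0.09, adjusted p = 2.67e-05) and 1.53-fold lower with i-BET151 (-0.62, SE 0.09, adjusted p = 5.11e-04). Neither call was lost without any 1 library. The effect of i-BET858 differed between the times by -0.78 (SE 0.14, adjusted p = 6.30e-04 of the drug-by-time interaction), and that of i-BET151 by -0.30 (95% interval -0.60 to 0.00152, adjusted p = 0.185).

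E2F4 (ENSG00000205250.9, chr16:67192155-67198918), the most abundant repressor of the family and a subunit of the DREAM complex, fell in all 4 comparisons. At 4 h it was at 114, 130.3 and 135 CPM in DMSO, at 90.2, 93.2 and 96.8 CPM with i-BET151 and at 68.2, 57.5 and 77.5 CPM with i-BET858. The 3 conditions were separate, with i-BET858 the lowest. E2F4 fell 1.87-fold after i-BET858 (log2 fold change -0.90, SE 0.13, adjusted p = 3.56e-04) and 1.35-fold after i-BET151 (-0.44, SE 0.13, adjusted p = 0.0407).

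The i-BET151 call of E2F4 at 4 h rested on the full set of libraries. It was lost when DMSO replicate 2 or 3, any of the 3 i-BET151 replicates or i-BET858 replicate 1 was left out, with adjusted p from 0.0545 to 0.129. In replicates 1 and 2 alone it was -0.42 (adjusted p = 0.0330) and in replicate 3 -0.48.

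At 24 h E2F4 was at 126, 132 and 136 CPM in DMSO, at 100.4, 95.9 and 102 CPM with i-BET151 and at 95.3, 107 and 90.8 CPM with i-BET858. Both drugs lay below DMSO and overlapped each other. The changes were -0.43 with i-BET858 (SE 0.09, adjusted p = 0.00363) and -0.41 with i-BET151 (SE 0.09, adjusted p = 0.00678). The i-BET858 effect was thus smaller at 24 h than at 4 h, by 0.51 (SE 0.15, adjusted p = 0.0183), a call that was lost with no filter on low counts (adjusted p = 0.0544) or without i-BET858 24 h replicate 2 (0.0533). For i-BET151 the difference between the times was 0.05 (95% interval -0.27 to 0.38).

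E2F5 (ENSG00000133740.11, chr8:85177154-85217158), the other repressor that binds pocket proteins, was low at 4 h and back near DMSO at 24 h. Its 4 h levels were 20.1, 25.3 and 16.2 CPM in DMSO, 10.01, 12.9 and 5.16 CPM with i-BET151 and 8.45, 9.71 and 5.35 CPM with i-BET858. No treated library reached the lowest DMSO library, and replicate 3 was the lowest of each condition. The fall was 2.62-fold with i-BET858 (log2 fold change -1.39, SE 0.33, adjusted p = 0.00753) and 2.20-fold with i-BET151 (-1.14, SE 0.33, adjusted p = 0.0353). The i-BET151 call was lost without DMSO replicate 1 or 2, i-BET151 replicate 1 or 3 or i-BET858 replicate 1 (adjusted p from 0.0504 to 0.135).

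At 24 h E2F5 was at 25.0, 24.2 and 17.5 CPM in DMSO, at 22.4, 21.6 and 14.0 CPM with i-BET151 and at 22.0, 19.9 and 12.4 CPM with i-BET858. The conditions overlapped, although within each replicate number the treated library was below DMSO. The change was -0.30 with i-BET858 (95% interval -0.84 to 0.25, adjusted p = 0.367) and -0.20 with i-BET151 (-0.74 to 0.34, adjusted p = 0.578). With the replicate number as a block the i-BET858 change passed (-0.32, adjusted p = 0.0250).

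The difference of the E2F5 effect between the times was 1.13 for i-BET858 (95% interval 0.21 to 2.06) and 0.95 for i-BET151 (0.03 to 1.87). Neither passed (adjusted p = 0.0630 and 0.165), but both did with the replicate number as a block (adjusted p = 1.76e-04 and 0.00132). Both also passed with no filter (0.00109 and 0.0181) and in replicates 1 and 2 alone (0.00104 and 0.0132). That of i-BET858 passed as well with DESeq2 (0.0405) and without i-BET151 4 h replicate 3 (0.0337) or i-BET858 24 h replicate 3 (0.0322). Without i-BET151 4 h replicate 3 the i-BET151 difference was 0.63 (adjusted p = 0.337). Of the exons of E2F5, 997 bases (16.6%) are shared with RBIS on the opposite strand, and reads of both cannot be told apart where the strand was not used. RBIS had 108 to 311 counts in a library and passed in none of the comparisons of the drugs and DMSO.

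E2F6 (ENSG00000169016.17, chr2:11444375-11466177), the repressor that acts without pocket proteins, went down and then up with i-BET858. At 4 h it was at 37.2, 32.7 and 34.5 CPM in DMSO, at 29.9, 30.3 and 29.9 CPM with i-BET151 and at 23.8, 26.9 and 24.3 CPM with i-BET858. At 24 h it was at 29.4, 29.5 and 31.1 CPM in DMSO, at 35.5, 34.2 and 34.3 CPM with i-BET151 and at 37.4, 35.9 and 45.5 CPM with i-BET858. The order of the conditions was reversed between the times, and at neither time did they overlap.

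For i-BET858 the change of E2F6 was -0.48 at 4 h (SE 0.12, adjusted p = 0.0117) and 0.40 at 24 h (SE 0.11, adjusted p = 0.0144). The 4 h call was lost without DMSO replicate 1 (adjusted p = 0.0504) and the 24 h call without DMSO replicate 1 (0.0512) or 2 (0.0534). The difference between the times was 0.92 (SE 0.15, adjusted p = 2.67e-04) and passed in every alternative fit, though it is under 2-fold. For i-BET151 the changes did not pass at 4 h (-0.21, adjusted p = 0.281) or at 24 h (0.21, adjusted p = 0.179, and 0.0410 in replicates 1 and 2 alone). Their difference of 0.44 (95% interval 0.12 to 0.77) had an adjusted p of 0.0662, 0.0356 with the replicate number as a block and 0.0489 without i-BET858 24 h replicate 3.

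**Figure D3:**
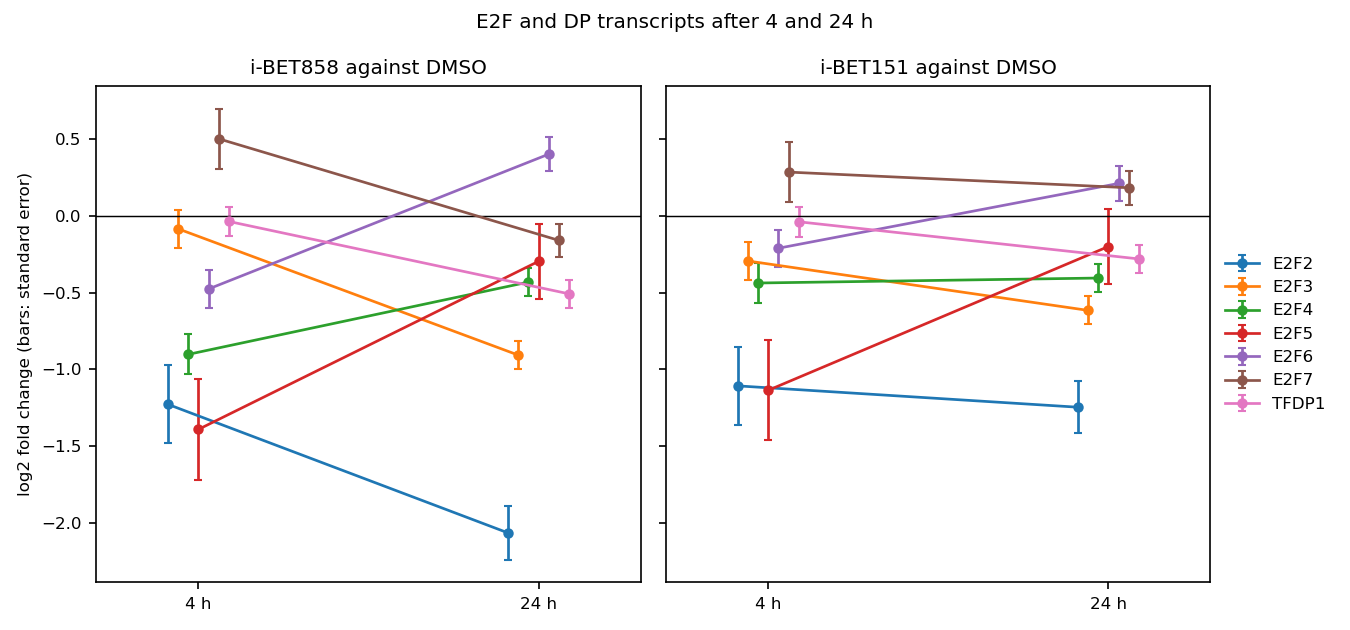
Log2 fold change against DMSO (vertical axis, bars are the standard error) at 4 and 24 h for the 7 transcripts whose i-BET858 effect differed most between the times, i-BET858 at left and i-BET151 at right. E2F6 crosses from -0.48 to 0.40 with i-BET858, E2F5 returns towards 0 with both drugs, and E2F3 and TFDP1 leave 0 by 24 h.

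E2F7 (ENSG00000165891.16, chr12:77021248-77065569) and E2F8 (ENSG00000129173.13, chr11:19224063-19241620), the atypical repressors that often act together, did not move together. E2F7 was at 21.0, 21.2 and 25.2 CPM in DMSO at 4 h, at 28.2, 26.9 and 27.04 CPM with i-BET151 and at 24.5, 43.1 and 27.8 CPM with i-BET858. Replicate 2 of i-BET858 was far above the other libraries. The change was 0.50 with i-BET858 (95% interval 0.07 to 0.93) and 0.28 with i-BET151 (-0.15 to 0.72), and neither passed (adjusted p = 0.0771 and 0.382). With i-BET858 it passed with the replicate number as a block (adjusted p = 0.0271), in the fit of all 18 libraries (0.0243), with no filter (0.0496) and without i-BET858 replicate 1 (0.0319). In replicates 1 and 2 alone the value was 0.68 (0.0242), against 0.14 in replicate 3. Without i-BET858 replicate 2 it was 0.22 (adjusted p = 0.337).

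At 24 h E2F7 was at 18.2, 18.4 and 18.7 CPM in DMSO, at 21.7, 21.3 and 19.9 CPM with i-BET151 and at 16.2, 16.1 and 17.3 CPM with i-BET858. The drugs lay on opposite sides of DMSO, with -0.16 for i-BET858 (95% interval -0.40 to 0.08, adjusted p = 0.273) and 0.18 for i-BET151 (-0.06 to 0.42, adjusted p = 0.236). The i-BET858 effect differed between the times by -0.62 (adjusted p = 0.0534), which passed with the replicate number as a block (0.0280). The difference also passed with DESeq2 (0.0236), with its size factors (0.0366), with at least 10 counts in every library (0.0210) and in replicates 1 and 2 alone (0.0194). So it did without DMSO 4 h replicate 3, i-BET858 4 h replicate 1 or i-BET858 4 h replicate 3 (0.0162 to 0.0444). Without i-BET858 4 h replicate 2 the difference was -0.34 (adjusted p = 0.161).

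E2F8 fell in all 4 comparisons. At 4 h it was at 31.5, 29.8 and 32.3 CPM in DMSO, at 15.1, 15.5 and 14.5 CPM with i-BET151 and at 9.56, 15.0 and 12.6 CPM with i-BET858. The treated libraries were all at 15.5 CPM or less, apart from DMSO. The fall was 2.51-fold with i-BET858 (log2 fold change -1.33, SE 0.17, adjusted p = 1.55e-04) and 2.07-fold with i-BET151 (-1.05, SE 0.17, adjusted p = 0.00162).

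At 24 h E2F8 was at 31.5, 30.4 and 23.8 CPM in DMSO, at 16.0, 18.4 and 19.7 CPM with i-BET151 and at 14.1, 14.0 and 8.54 CPM with i-BET858. The 3 conditions did not overlap. The fall was 2.33-fold with i-BET858 (-1.22, SE 0.20, adjusted p = 6.51e-04) and 1.58-fold with i-BET151 (-0.66, SE 0.20, adjusted p = 0.0245). For i-BET151 the value was -0.87 in replicates 1 and 2 and -0.27 in replicate 3, and the call was lost without DMSO replicate 1 or 2 or i-BET151 replicate 1 or 2 (adjusted p from 0.0687 to 0.0905).

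Of the DP partners, TFDP1 (ENSG00000198176.13, chr13:113584721-113641473), the main dimer partner of the E2F proteins, passed at 24 h and not at 4 h. At 4 h it was at 122, 132 and 128 CPM in DMSO, at 123, 123 and 127 CPM with i-BET151 and at 123, 122 and 127 CPM with i-BET858. The conditions overlapped, with changes of -0.04 for i-BET858 (95% interval -0.25 to 0.18) and -0.04 for i-BET151 (-0.25 to 0.17). At 24 h it was at 128, 134 and 148 CPM in DMSO, at 112, 108 and 118 CPM with i-BET151 and at 92.2, 97.7 and 98.7 CPM with i-BET858.

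The 3 conditions of TFDP1 were separate at 24 h. TFDP1 was 1.42-fold lower with i-BET858 (-0.51, SE 0.09, adjusted p = 0.00130) and 1.22-fold lower with i-BET151 (-0.28, SE 0.09, adjusted p = 0.0381). The i-BET858 effect differed between the times by -0.43 (SE 0.12, adjusted p = 0.0122, but 0.225 with no filter on low counts). That of i-BET151 differed by -0.22 (95% interval -0.47 to 0.03), which did not pass (adjusted p = 0.245). The i-BET151 call was lost without DMSO replicate 2 or 3, i-BET151 replicate 1 or 2 or any 1 of the i-BET858 libraries (adjusted p from 0.0533 to 0.125), with no filter (0.137) and with only the 2 groups in the fit (0.0742).

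TFDP2 (ENSG00000114126.17, chr3:141944428-142149544), the second DP partner, passed no test. It ranged from 123 to 138 CPM over the 9 libraries of 4 h and from 124 to 157 CPM over those of 24 h, and the conditions overlapped at both times. Its largest change was -0.16 with i-BET858 at 24 h (95% interval -0.38 to 0.06, adjusted p = 0.222). In replicates 1 and 2 alone this value was -0.21 (adjusted p = 0.0237) and that of i-BET151 was -0.19 (0.0410), against -0.06 and 0.06 in replicate 3.

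The drugs were next compared with each other at the matched dose of 1 µM. None of the 10 genes passed edgeR's test at 4 h (unadjusted p under 0.05 for 1, DESeq2 calling 1) or at 24 h (unadjusted p under 0.05 for 5, DESeq2 calling 1), against 0.971% and 0.21% of all tested genes. Of the 167 genes called over all genes at 4 h, 42.51% were higher with i-BET858. That share was 16.62% of 331 with total library size and 45.28% of 159 with the size factors of DESeq2. Few genes were called at 24 h. The share there was 44.44% of 36 with TMM, 26.79% of 56 with total library size and 76.92% of 13 with the size factors of DESeq2. Failing the threshold does not show that the compounds act alike, so the intervals are given.

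Pairs here set each of the 3 libraries of a drug against each of the 3 of the other, so the 9 pairs are not independent. At 4 h the widest gap was that of E2F4, lower with i-BET858 in 9 of 9 pairs of libraries (log2 fold change -0.46, 95% interval -0.75 to -0.18, adjusted p = 0.132). This difference passed with the replicate number as a block (adjusted p = 0.00848), in the fit of all 18 libraries (0.0223), with DESeq2 (0.0441) and with total library size (0.0466). E2F6 was also lower in 9 of 9 pairs (-0.26, 95% interval -0.53 to 0.00360). For TFDP1 and TFDP2 the differences were 0.00185 (-0.21 to 0.21) and 0.01 (-0.22 to 0.23).

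At 24 h E2F2 differed most, with -0.82 for i-BET858 against i-BET151 (95% interval -1.20 to -0.44, adjusted p = 0.0913). It passed with the replicate number as a block (adjusted p = 0.0173), with no filter (0.00914), with DESeq2 (0.00268) and in replicates 1 and 2 alone (0.0139), where the difference was -0.57, against -1.32 in replicate 3. E2F8 (-0.56, 95% interval -0.9995 to -0.12), E2F7 (-0.34, -0.59 to -0.10), E2F3 (-0.29, -0.49 to -0.09) and TFDP1 (-0.23, -0.43 to -0.02) were lower with i-BET858 in 9 of 9 pairs, and E2F6 (0.19, -0.06 to 0.44) was higher in 9 of 9. Without i-BET858 replicate 3 the difference of E2F8 was -0.35 and that of E2F6 was 0.0839, which was 0.0918 in replicates 1 and 2 alone against 0.41 in replicate 3. None of these 5 passed, and E2F7 did in replicates 1 and 2 alone (adjusted p = 0.0336). The differences of E2F1 (-0.07, -0.31 to 0.18) and E2F4 (-0.03, -0.23 to 0.18) were small beside their intervals.

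Between the times, 4 of the 10 genes had an i-BET858 effect that differed, E2F4 and E2F6 upwards and E2F3 and TFDP1 downwards, against 27.2% of all 18154 genes of the fit of 18 libraries. None of the 4 reached 2-fold, against 15.1% of all genes. For i-BET151 none of the 10 passed (unadjusted p under 0.05 for 2, DESeq2 calling 0), against 13.8% of all genes. In DMSO alone, from 4 to 24 h, none passed either (unadjusted p under 0.05 for 2, DESeq2 calling 0), against 0.0386% of all genes. The 2 were E2F6 (-0.29, 95% interval -0.52 to -0.06) and E2F7 (-0.36, -0.70 to -0.02).

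For each of the 7 genes called in at least 1 comparison with DMSO, the transcripts with the most similar course were sought among 12106 others, by the root mean square difference of the log2 level relative to DMSO over the 12 treated libraries. The nearest were FCSK (0.117) and SLC25A26 (0.126) for E2F3, GFER (0.116) and HPS4 (0.117) for E2F4, WBP1L (0.0825) and SERINC3 (0.103) for E2F6, and JPT2 (0.0798) and HPRT1 (0.0818) for TFDP1. For E2F5 they were BANP (0.233) and FLVCR1 (0.240), for E2F8 KLHL23 (0.186) and LARS2 (0.217), and for E2F2 the unnamed gene ENSG00000260401 (0.213) and IFNGR2 (0.263). None of these is another E2F or DP gene, since members were left out of the search.

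Upstream of the E2F proteins stand the cyclins and kinases that free them from pocket proteins. This and the following lists were chosen with earlier results of these data known, so a share above that of all genes is not independent support. The counts of these lists are to be read against the shares of all tested genes, which for i-BET858 were 14.5% higher and 16.3% lower at 4 h and 20.5% higher and 21.3% lower at 24 h. For i-BET151 they were 7.81% higher and 8.43% lower at 4 h and 17.2% higher and 16.6% lower at 24 h. The alternative fits have shares of their own. The replicate block called 22.3% of all genes higher and 23.0% lower for i-BET858 at 4 h and 25.7% and 26.3% at 24 h. For i-BET151 it called 15.6% and 17.0% at 4 h and 23.2% and 22.6% at 24 h. Under the block the counts of several lists below were larger, as for all genes, and those of the CDK inhibitor genes were unchanged. Leaving out single libraries also moved the calls over all genes. At 4 h the main fit called 5303 genes for i-BET858 and 2791 for i-BET151, and those fits 4125 to 5936 and 1685 to 3222. At 24 h the main fit called 7158 and 5797 genes, and those fits 5763 to 7963 and 4272 to 6175.

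Of 8 such genes tested, 3 rose and 2 fell at 4 h with each drug, and 1 rose and 4 fell with i-BET858 at 24 h and 1 rose and 2 fell with i-BET151. The share that rose at 24 h was below that of all genes with either drug. CCNE1, the cyclin that activates CDK2 at the start of S phase, rose with i-BET858 from a mean of 162 to 379 CPM at 4 h (log2 fold change 1.22, adjusted p = 1.21e-04) and was down from 179 to 125 CPM at 24 h (-0.51, adjusted p = 0.00258). CCNE2 rose at 4 h as well (1.66 with i-BET858 and 1.22 with i-BET151, adjusted p = 1.18e-04 and 0.00201). CDK6, a kinase of RB1, fell in all 4 comparisons (-1.09 and -0.69 at 4 h and -1.25 and -0.80 at 24 h for i-BET858 and i-BET151), and its partner CCND3 rose in all 4 (0.68, 0.71, 1.05 and 0.76 in the same order).

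The count of cyclins and kinases that fell was lower without some libraries. At 4 h it was 1 without DMSO replicate 3 with either drug or without i-BET858 replicate 1 for i-BET858, and 0 without i-BET151 replicate 1 or 2 for i-BET151. At 24 h it was 2 without i-BET858 replicate 1 for i-BET858, and for i-BET151 1 without any 1 DMSO library, i-BET151 replicate 1 or 2 or i-BET858 replicate 2, and the 1 that rose was lost without DMSO replicate 1 or 2. With the replicate number as a block, 5 fell with i-BET151 at 24 h.

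Of the 7 inhibitors of these kinases, with i-BET858 5 rose and none fell at 4 h and 4 rose and 1 fell at 24 h, and with i-BET151 3 rose at 4 h and 4 rose and 1 fell at 24 h. CDKN1A, which encodes p21, went from a mean of 7.9 CPM in DMSO to 153 CPM with i-BET858 at 4 h (log2 fold change 4.27, adjusted p = 1.68e-06) and to 95.7 CPM at 24 h (3.60, adjusted p = 5.54e-07). With i-BET151 it rose by 3.26 and 2.66. CDKN2B and CDKN2D, inhibitors of the cyclin D kinases, also rose in all 4 comparisons, and the 1 that fell at 24 h was CDKN2A (-0.92 with i-BET858 and -0.97 with i-BET151).

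Among the 3 pocket proteins, RBL1, itself an E2F target, fell at 4 h by 1.18 on the log2 scale after i-BET858 (adjusted p = 7.62e-04) and by 0.78 after i-BET151 (adjusted p = 0.0166). RB1 rose at 24 h (0.39 and 0.47, adjusted p = 0.0439 and 0.0234), and RBL2 fell with i-BET858 at 24 h (-0.53, adjusted p = 0.0325). Of 7 genes for the MuvB core, MYBL2 and FOXM1, which join pocket proteins and E2F4 in DREAM or replace them later in the cycle, LIN9 fell in all 4 comparisons (-1.28, -0.70, -0.81 and -0.48 for i-BET858 and i-BET151 at 4 h and then at 24 h). LIN54 rose with i-BET858 at 4 h (0.67) and with both at 24 h (0.67 and 0.62). With i-BET858, 1 gene of this list rose and 2 fell at 4 h and 1 rose and 1 fell at 24 h, and with i-BET151 1 fell at 4 h and 1 rose and 1 fell at 24 h. With the replicate number as a block, 2 rose and 4 fell with i-BET858 at 4 h and 2 fell at 24 h, and 3 fell with i-BET151 at 4 h.

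Several of these calls rested on single libraries. The fall of RBL1 with i-BET151 was lost without DMSO replicate 1 or i-BET151 replicate 1 or 2. At 24 h the rise of RB1 was lost with either drug without DMSO replicate 1 or 2 or i-BET151 replicate 2, with i-BET151 also without i-BET151 replicate 3, and with i-BET858 also without i-BET858 replicate 1 or 3 or with total library size. The fall of RBL2 was lost without DMSO replicate 1 or 2, i-BET151 replicate 1 or i-BET858 replicate 2 or 3. Of the MuvB list, 1 in place of 2 fell with i-BET858 at 4 h without DMSO replicate 1 or 3 or i-BET858 replicate 1, and with i-BET151 none fell at 4 h without DMSO replicate 1 or i-BET151 replicate 2, or at 24 h without DMSO replicate 2 or i-BET151 replicate 1.

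Of 40 G1/S genes with E2F sites, the targets of the activators, 8 rose and 10 fell with i-BET858 at 4 h, and 3 rose and 19 fell at 24 h. With i-BET151 3 rose and 3 fell at 4 h, and 2 rose and 12 fell at 24 h. The shares were below those of all genes in both directions with i-BET151 at 4 h, and for the genes that rose at 24 h with either drug. Their median change was 0.02, -0.06, -0.30 and -0.19 for i-BET858 and i-BET151 at 4 h and then at 24 h. GINS1, of the replicative helicase, and RFC3, of the clamp loader, fell in all 4 comparisons, and POLE2 (-1.81), UHRF1 (-1.25) and MCM5 (-1.10) fell most with i-BET858 at 24 h. At 4 h the histone mRNA binding gene SLBP rose by 1.20 with i-BET858, from a mean of 107 to 247 CPM (adjusted p = 9.19e-05), and TK1 by 0.81.

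The 4 h counts of this list moved with single libraries and with the scaling. Calls over all genes moved too, with i-BET858 from 5303 of 17192 to 4125 of 17692 without DMSO replicate 2. The 8 that rose with i-BET858 became 5 without DMSO replicate 1 or i-BET858 replicate 1 and 4 without DMSO replicate 2 or 3 or with total library size (10.2% of all genes rose under that scaling), and the 10 that fell became 6 without DMSO replicate 1. With i-BET151 at 4 h, 1 rose without DMSO replicate 2, 6 rose without i-BET151 replicate 3 and 5 fell without i-BET858 replicate 3. The replicate block gave 6 higher and 9 lower there, and total library size 6 lower. The 19 and 12 that fell at 24 h stayed within 15 to 19 and 8 to 12 when single libraries were left out, and the few that rose were 5 without DMSO replicate 3 for either drug and 1 without i-BET858 replicate 1 or 2 for i-BET858. The replicate block gave 5 and 4 of these. Replicates 1 and 2 alone gave 6 with i-BET858 and 7 with i-BET151, where 29.8% and 26.0% of all genes rose. With total library size 1 rose with i-BET858, where 17.1% of all genes rose.

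Of 24 G2/M genes that DREAM represses and FOXM1 activates, 2 rose and 4 fell with i-BET858 at 4 h. At 24 h 10 rose and none fell with i-BET858. The number that fell there was 1 with the replicate block or total library size, 2 in replicates 1 and 2 alone and 0 with DESeq2. With i-BET151 1 rose and 1 fell at 4 h, and 7 rose and 1 fell at 24 h. At 4 h the shares of this list were near or below those of all genes in both directions. With total library size the 4 that fell with i-BET858 at 4 h became 7, where 21.6% of all genes fell, and 1 rose with i-BET858 and none with i-BET151. At 4 h the mitotic kinase genes AURKA (-0.62), PLK1 (-0.54) and TTK (-0.77) fell with i-BET858. None of the 4 falls reached 2-fold, whereas 1 of the 2 rises did. The authors reported that they did not see down-regulation of FOXM1, AURKA or PLK1, and named no time for this. Their calls came from DESeq2, not from the edgeR fit used here. Their gene set analysis did report G2/M checkpoint genes as down-regulated by i-BET858 at 4 h. At 24 h ASPM (0.88), KIF20A (0.74) and KIF11 (0.67), genes of the spindle and its motors, rose with i-BET858. The 10 became 6 without i-BET858 replicate 1 or 2, 5 with total library size (17.1% of all genes rose) and 17 in replicates 1 and 2 alone (29.8% of all genes rose). The 7 became 3 without i-BET151 replicate 1 or 2 or with total library size (15.6% of all genes rose, a larger share than of the list), 11 with the replicate block and 15 in replicates 1 and 2 alone (26.0% of all genes rose). At 4 h the 2 that rose with i-BET858 became 1 without DMSO replicate 2 or 3 or i-BET858 replicate 1 or 2, 4 without i-BET858 replicate 3 and 6 with the block. The 1 that rose with i-BET151 at 4 h was lost without DMSO replicate 1 or 3 or any 1 i-BET151 library, and the block gave 4 higher and 3 lower. The 1 that fell with i-BET151 at 24 h was lost without DMSO replicate 2 or i-BET151 replicate 1 or 2.

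Of 12 partners of E2F6 in its Polycomb complex, 1 rose and 6 fell with i-BET858 at 4 h (3 fell without DMSO replicate 3 or i-BET858 replicate 1), and 3 rose and 5 fell at 24 h. With i-BET151 1 rose and 3 fell at 4 h, and 4 rose and 3 fell at 24 h. The 3 that fell at 4 h became 1 without any 1 DMSO library, i-BET151 replicate 1 or 2 or i-BET858 replicate 1, and the 4 that rose at 24 h became 1 or 2 without any 1 DMSO or i-BET151 library. With total library size 1 rose with i-BET858 and 2 with i-BET151 at 24 h. With the block 3 rose with i-BET858 at 4 h, and with i-BET151 2 rose and 5 fell at 4 h and 5 fell at 24 h. MGA, the scaffold of this complex, fell from a mean of 67.8 to 25.6 CPM with i-BET858 at 4 h (-1.40, adjusted p = 1.18e-05) and was up from 55.2 to 84.8 CPM at 24 h (0.62, adjusted p = 0.0126). The i-BET858 effect on MGA differed between the times by 2.06 (adjusted p = 3.82e-06) and that of i-BET151 by 1.52 (adjusted p = 2.33e-04). PCGF6 and L3MBTL2, further subunits, fell in all 4 comparisons, and RYBP rose in all 4.

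Of 10 cell death genes linked to E2F1, 4 rose and 1 fell with i-BET858 at 4 h, and 6 rose and 3 fell at 24 h. With i-BET151 3 rose and 1 fell at 4 h, and 4 rose and 2 fell at 24 h, and with the replicate block 5 rose at 4 h. The 1 that fell at 4 h became 2 with i-BET858 without DMSO replicate 2 or with the block, and was lost with i-BET151 without DMSO replicate 2 or i-BET151 replicate 1 or 2. BCL2L11, which encodes the BH3 protein BIM, rose in all 4 comparisons (1.69, 1.09, 1.17 and 1.02 for i-BET858 and i-BET151 at 4 h and then at 24 h). TP73, a direct E2F1 target, fell at 24 h from a mean of 6.3 to 1.7 CPM with i-BET858 (-1.88, adjusted p = 2.86e-04) and to 1.8 CPM with i-BET151 (-1.77, adjusted p = 6.27e-04).

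**Figure D4:**
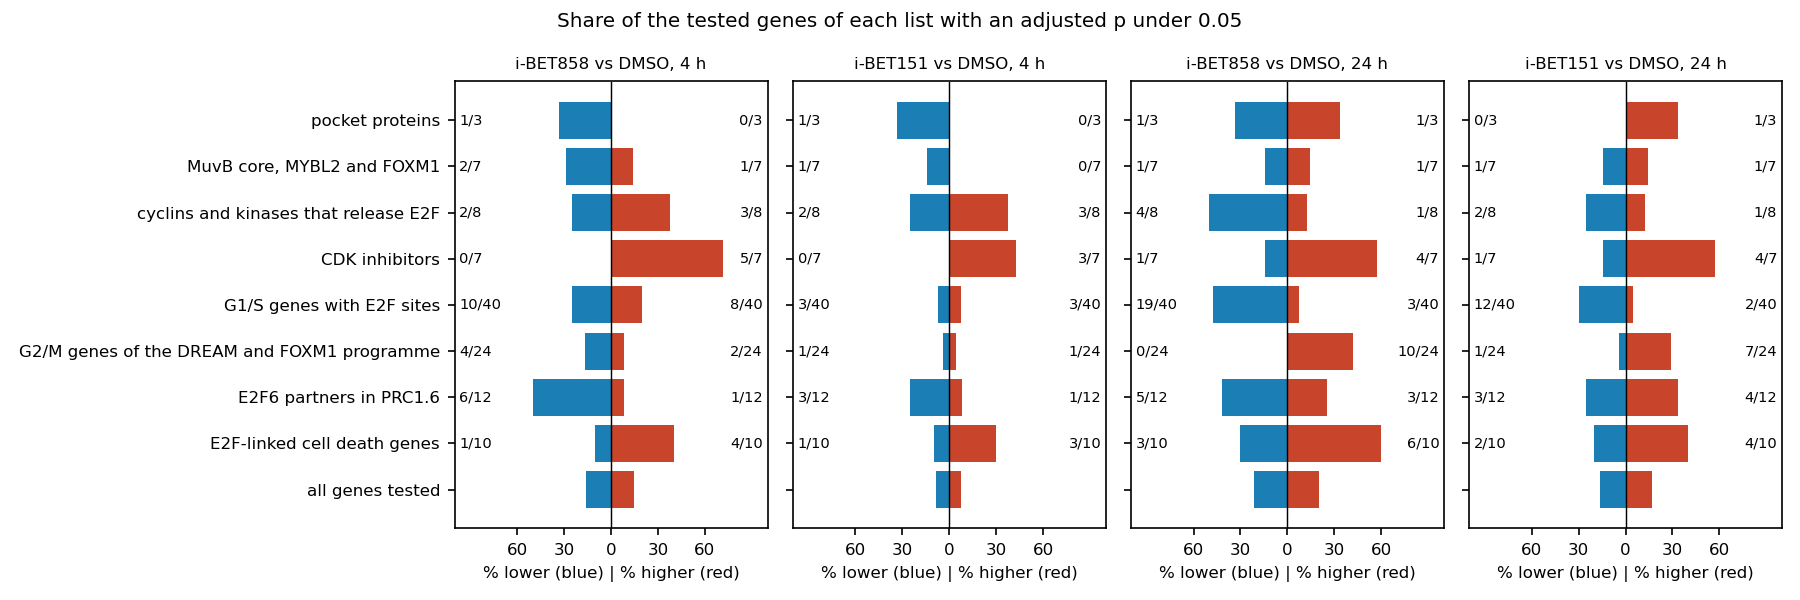
Share of the tested genes of each list that fell (blue, to the left) or rose (red, to the right) with an adjusted p under 0.05, in percent, for the 4 comparisons with DMSO, with the counts at the sides and the share over all genes tested in the lowest bar. At 24 h 19 and 12 of the 40 G1/S genes fell with i-BET858 and i-BET151, and 10 and 7 of the 24 G2/M genes rose, the latter falling to 5 and 3 with total library size.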

How the data were processed

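The authors aligned paired-end poly-A reads to GRCh38 with STAR and deposited raw gene counts per library (unit: counts, not normalized). The annotation and strand column are not given in the sources used here. Symbols and positions came from GENCODE release 44, which matched 58472 of 58825 identifiers (99.4%). From the counts, edgeR 4.0.16 (R 4.3.3, limma 3.58.1) fitted the 9 libraries of a time point in 1 model with TMM scaling, edgeR's filter on low counts, a quasi-likelihood test and Benjamini-Hochberg adjustment over all genes, whereas changes between times came from all 18 libraries. SE is the size of the log2 fold change divided by the root of F. The tests were tried on simulated data, the outcome of which is not given here and is used for no result.

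Text names the 10 members and, per list, at most 4 passing genes a direction with the largest changes (mean log2 CPM of at least 1) or those passing in all 4 comparisons. RMS neighbours used a prior count of 2. The members and lists were chosen with earlier results of these data known. Alternatives were DESeq2 1.42.0, other scalings and filters, other sample sets, a 2-fold threshold, single libraries left out and the replicate number as a block. After removal of group means, libraries with the same number correlated at 0.141 to 0.365 (4 h) and 0.161 to 0.352 (24 h), all above 0.1, and those with other numbers at -0.341 to 0.233 and -0.329 to 0.326, ranges that overlap. By the 0.1 rule the numbers were taken as pairing in the block fits, although the labels do not say what they share. The main fits held the condition only and left this pairing out. Replicates 1 and 2 of a group differed by 4.50 to 24.5 times the variance of counting error. Pairs with replicate 3 differed by 47.4 to 73.8 times, so none was a duplicate deposit and replicate 3 stood apart. The library totals put 3 counts at 0.0648 to 0.110 CPM, which covers counting error only. The TFDP1 and E2F3 pseudogene copies and TFDP3 had at most 45 counts in a library.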

Additional observations from a re-analysis of the deposited data

Results flagged for a closer look

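The effect of i-BET858 against DMSO differed between 4 and 24 h for 4 of the 10 genes by the drug-by-time interaction of edgeR's fit of 18 libraries. By the same test it differed for 27.2% of all 18154 genes. The difference in log2 fold change was -0.777 for E2F3 (adjusted p = 6.30e-04), 0.514 for E2F4 (adjusted p = 0.0183), 0.920 for E2F6 (adjusted p = 2.67e-04) and -0.427 for TFDP1 (adjusted p = 0.0122). With no filter on low counts the calls of E2F4 (adjusted p = 0.0544) and TFDP1 (0.225) were lost. That of E2F4 was also lost without i-BET858 24 h replicate 2 (0.0533). No outlying library was looked for, since each condition had 3.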

How the results depend on the processing

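None of the 10 genes had under 184 counts in a library, and each condition had 3 replicates of 1 cell line. The counts of passing genes under alternatives were as follows. With an added 2-fold threshold, 3 passed with i-BET858 at 4 h, 2 at 24 h, 1 with i-BET151 at 24 h and 0 for the change of the i-BET858 effect. With DESeq2, 7 passed for the change of the i-BET858 effect, against 15.9% of all genes. For i-BET858 against i-BET151 it called 1 at either time, against 2.08% of all genes at 4 h and 1.36% at 24 h. With no filter on low counts, 1 passed for the change of the i-BET151 effect and 1 for i-BET858 against i-BET151 at 24 h. The shares of all genes there were 7.4% and 1.08%. With replicates 1 and 2 only the counts were 1 and 2, against 26.3% and 7.29% of all genes. With total library size or all 18 libraries, 1 passed for i-BET858 against i-BET151 at 4 h. Of all genes, 1.93% were called with total library size and 549 of 18154 with all 18 libraries. When single libraries were left out, 1 to 4 passed with i-BET151 at 4 h, 3 to 5 with i-BET151 at 24 h and 0 to 1 for the change of the i-BET151 effect. Of all genes, the same fits called 1685 to 3222, 4272 to 6175 and 1595 to 2671 in these comparisons. The main fits called 2791, 5797 and 2508. The cause of these shifts was not tested.

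With the replicate number as a block, 6 passed with i-BET858 and 5 with i-BET151 at 4 h, 7 and 5 at 24 h, 1 for i-BET858 against i-BET151 at either time, 7 for the change of the i-BET858 effect and 2 for that of i-BET151. The block called more of all genes too, 45.4% and 32.7% at 4 h, 52.0% and 45.9% at 24 h, 9.63% and 4.37% for i-BET858 against i-BET151 at 4 and 24 h, and 38.3% and 25.2% for the changes between the times. The block changed no call of the 10 genes other than those given in the report.

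Values near 0 changed sign under some alternatives, none past the threshold. With all 18 libraries, the log2 fold change was -0.00497 for TFDP1 (i-BET858 against i-BET151 at 4 h). With a minimum of 10 counts in every library, the log2 fold change was -0.012 for E2F4 (the change of the i-BET151 effect), 0.0144 for E2F4 (DMSO at 24 against 4 h). With no filter, the log2 fold change was 0.000991 for E2F4 (i-BET858 against i-BET151 at 24 h), -0.00969 for TFDP1 (i-BET858 against i-BET151 at 4 h), -0.00352 for TFDP2 (i-BET858 against i-BET151 at 4 h). With only the 2 groups compared, the log2 fold change was -0.00774 for TFDP1 (i-BET858 against i-BET151 at 4 h), -0.00175 for TFDP2 (i-BET858 against i-BET151 at 4 h). With replicates 1 and 2 only, the log2 fold change was 0.00708 for E2F1 (i-BET858 against DMSO at 24 h), 0.0467 for E2F1 (i-BET858 against i-BET151 at 24 h), 0.0162 for E2F4 (DMSO at 24 against 4 h), 0.0589 for E2F4 (i-BET858 against i-BET151 at 24 h), -0.0181 for TFDP1 (DMSO at 24 against 4 h), -0.00106 for TFDP1 (i-BET858 against i-BET151 at 4 h). With total library size, the log2 fold change was -0.0263 for E2F1 (i-BET151 against DMSO at 4 h), -0.0446 for E2F1 (i-BET858 against DMSO at 4 h), -0.0183 for E2F1 (i-BET858 against i-BET151 at 4 h), 0.0221 for E2F4 (DMSO at 24 against 4 h), -0.0991 for TFDP1 (i-BET858 against i-BET151 at 4 h), -0.0236 for TFDP2 (i-BET151 against DMSO at 4 h), -0.12 for TFDP2 (i-BET858 against DMSO at 4 h), -0.0919 for TFDP2 (i-BET858 against i-BET151 at 4 h). When single libraries were left out, the ranges were for DMSO at 24 against 4 h E2F4 -0.0874 to 0.0269, E2F5 -0.10 to 0.22, TFDP1 -0.0205 to 0.0635, and for i-BET151 against DMSO at 24 h E2F1 -0.095 to 0.0174, and for i-BET151 against DMSO at 4 h E2F1 -0.0266 to 0.11, TFDP2 -0.00478 to 0.0829, and for i-BET858 against DMSO at 4 h TFDP2 -0.00419 to 0.0795. In the direct comparison the ranges at 24 h were E2F1 -0.15 to 0.0065, E2F4 -0.0937 to 0.027, E2F5 -0.27 to 0.12. At 4 h they were E2F2 -0.41 to 0.0318, E2F5 -0.55 to 0.0494, E2F7 -0.0684 to 0.37, TFDP1 -0.0162 to 0.0161, TFDP2 -0.0407 to 0.0355. For the change of the i-BET151 effect the range was E2F2 -0.34 to 0.0426, and for the change of the i-BET858 effect E2F8 -0.0164 to 0.35.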
